A study of Mus musculus with 24 samples.

Results

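Red blood cell transcripts were read in the right cerebral hemisphere of 24 mice through 5 genes, namely Hba-a1 (an alpha chain of adult haemoglobin), Hbb-b1 (a beta chain), Alas2 (the erythroid enzyme that starts haem synthesis), Klf1 (a transcription factor of the red cell lineage) and Slc4a1 (band 3, the anion exchanger of the red cell membrane). Every probe set whose platform annotation holds one of these names was taken, alone or with another globin gene, which gave 5 of the 19324 genes annotated on the array and 10 of its 45037 probe sets that are not controls. All mice were females of the strain labelled NMR-1, 8 weeks old at the start, and each lived for 2 weeks on 1 of 4 diets. The Chimpanzee diet was plant food with yogurt as given to captive chimpanzees, HumanCafe was cooked cafeteria food, FastFood was restaurant fast food, and Pellet was the mouse chow the animals had been raised on. Each diet had 6 mice with 1 array each, 3 in labelled batch 1 and 3 in labelled batch 2, the batches in which RNA was processed. The mice were killed by cervical dislocation and no perfusion is described in the sources used here. No group carried a transgene or a drug, and nothing but the diet set the groups apart by design.

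Adult mouse haemoglobin is a tetramer of alpha and beta chains with haem, and young red cells leaving the marrow, the reticulocytes, still carry large amounts of globin mRNA and some Alas2 mRNA. Klf1 acts earlier, in red cell precursors, where it binds CACCC-type promoter sequences and helps to switch on the adult beta globin gene. A brain taken without perfusion holds blood in its vessels, so blood transcripts are commonly read in such tissue. In bulk tissue, fewer red cells and less RNA per red cell cannot be told apart.

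The probe sets do not separate the globin copies. Of the 4 probe sets that hold Hba-a1, 3 are also annotated to Hba-a2, and the single Hbb-b1 probe set is annotated to Hbb-b2, Hbb-bs and Hbb-bt as well. In the reference genome GRCm38.p6, Hba-a1 lies at chr11:32283672-32284486 and its copy Hba-a2 at chr11:32296492-32297310, while Hbb-bs and Hbb-bt lie at chr7:103826523-103827928 and chr7:103812524-103813923. Alas2 lies at chrX:150547417-150570622, Klf1 at chr8:84901982-84905291 and Slc4a1 at chr11:102348820-102365281. Promoter sequences from RefSeq (GRCm38.p6) were matched for 3 of the 5 genes, Hba-a1, Alas2 and Klf1, and for the beta globin copy Hbb-bs. The 120 bases before the annotated start of an alpha globin gene, a beta globin gene and Alas2 are given here because the levels of these genes are set against each other below; capitals mark the word CCAAT, the word CCNCNCCC (of the kind Klf1 binds) and the word AGATAA (bound by the erythroid factor Gata1), each searched on both strands and merged where words overlap.
Hba-a1, chr11:32283552-32283671, plus strand: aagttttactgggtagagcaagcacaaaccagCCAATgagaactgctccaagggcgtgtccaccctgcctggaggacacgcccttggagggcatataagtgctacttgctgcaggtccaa
Hbb-bs, chr7:103827929-103828048, minus strand: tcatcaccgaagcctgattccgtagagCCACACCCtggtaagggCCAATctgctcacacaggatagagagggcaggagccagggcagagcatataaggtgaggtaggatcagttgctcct
Alas2, chrX:150547297-150547416, plus strand: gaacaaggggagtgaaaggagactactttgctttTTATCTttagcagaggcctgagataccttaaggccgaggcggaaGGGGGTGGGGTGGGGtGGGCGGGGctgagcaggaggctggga
Counted back from -1 at the last base before the start, Hbb-bs held CCNCNCCC at -93 to -86, CCAAT at -76 to -72 and, beyond the bases shown, AGATAA at -210 to -205. Hba-a1 held CCAAT at -88 to -84. Alas2 held AGATAA on the opposite strand at -86 to -81 and 4 CCNCNCCC words, some overlapping, on the opposite strand between -42 and -19. Over the 250 bases before the start, 34.5% of 27025 promoters held CCAAT, 45.6% held CCNCNCCC and 10.3% held AGATAA, so these words were not rare. The 250 bases before Hba-a1 and Hba-a2, aligned with a shift of 3 bases, were equal at all 247 positions compared. Hbb-bs and Hbb-bt, also compared at a single shift without gaps, were equal at 51.0% of 249 positions. An inserted or lost base lowers such a share, so it does not measure how alike the beta globin promoters are.

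Values are the deposited log2 levels, so that a difference of 1 is a 2-fold difference. A probe set passed the filter when its mean over the 24 arrays reached the median of all probe sets, 4.07, and 6 of the 10 red cell probe sets and 22519 of all 45037 passed. The arrays were not alike: their SD lay between 1.58 and 2.06 and the level exceeded by 0.1% of their probe sets, called the top level below, between 10.66 and 12.23, and the pellet array of batch 2 replicate 1 had a median correlation of 0.892 with the other arrays, against 0.980 to 0.993 on the others. The study's methods leave out 1 degraded pellet array without naming it, and all 24 arrays were used here. Diets were compared with limma, with labelled batch as a term, and called where the p-value, adjusted by Benjamini-Hochberg over all 22519 probe sets, was under 0.05. Every limma p-value below measures the spread between mice and arrays together. The permutation p-values of correlations, over all 24 arrays, also take in differences between diets and batches.

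The 3 bright globin probe sets stood near the top of every array. The brightest Hba-a1 probe set, with a mean of 12.63 ± 0.51 (SD, n = 24), ranked between 1 and 28 of 45037 by signal, with a median rank of 3. The second Hba-a1 probe set averaged 12.33 ± 0.53 with a median rank of 8 and ranks between 3 and 76. The Hbb-b1 probe set averaged 12.23 ± 0.55 with a median rank of 11 and ranks between 3 and 159. A signal also depends on a probe set's own probes, so these ranks give a position on the array and not an order of transcripts. Another Hba-a1 probe set, called the dim one below, was far weaker, with a mean of 9.39 ± 0.65 and a median rank of 1188. Alas2 averaged 6.002 ± 0.73 and Klf1 4.71 ± 0.38. The last Hba-a1 probe set, the only one annotated to Hba-a1 alone, lay below the filter at 3.18 ± 0.25, and the 3 probe sets of Slc4a1 lay below it at 3.50, 3.18 and 3.00. The 5 other globin genes with a probe set of their own also lay below the filter, Hbb-b2 at 3.94 and Hbb-bh1 at 3.78 having the highest means among them.

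**Figure D1:**
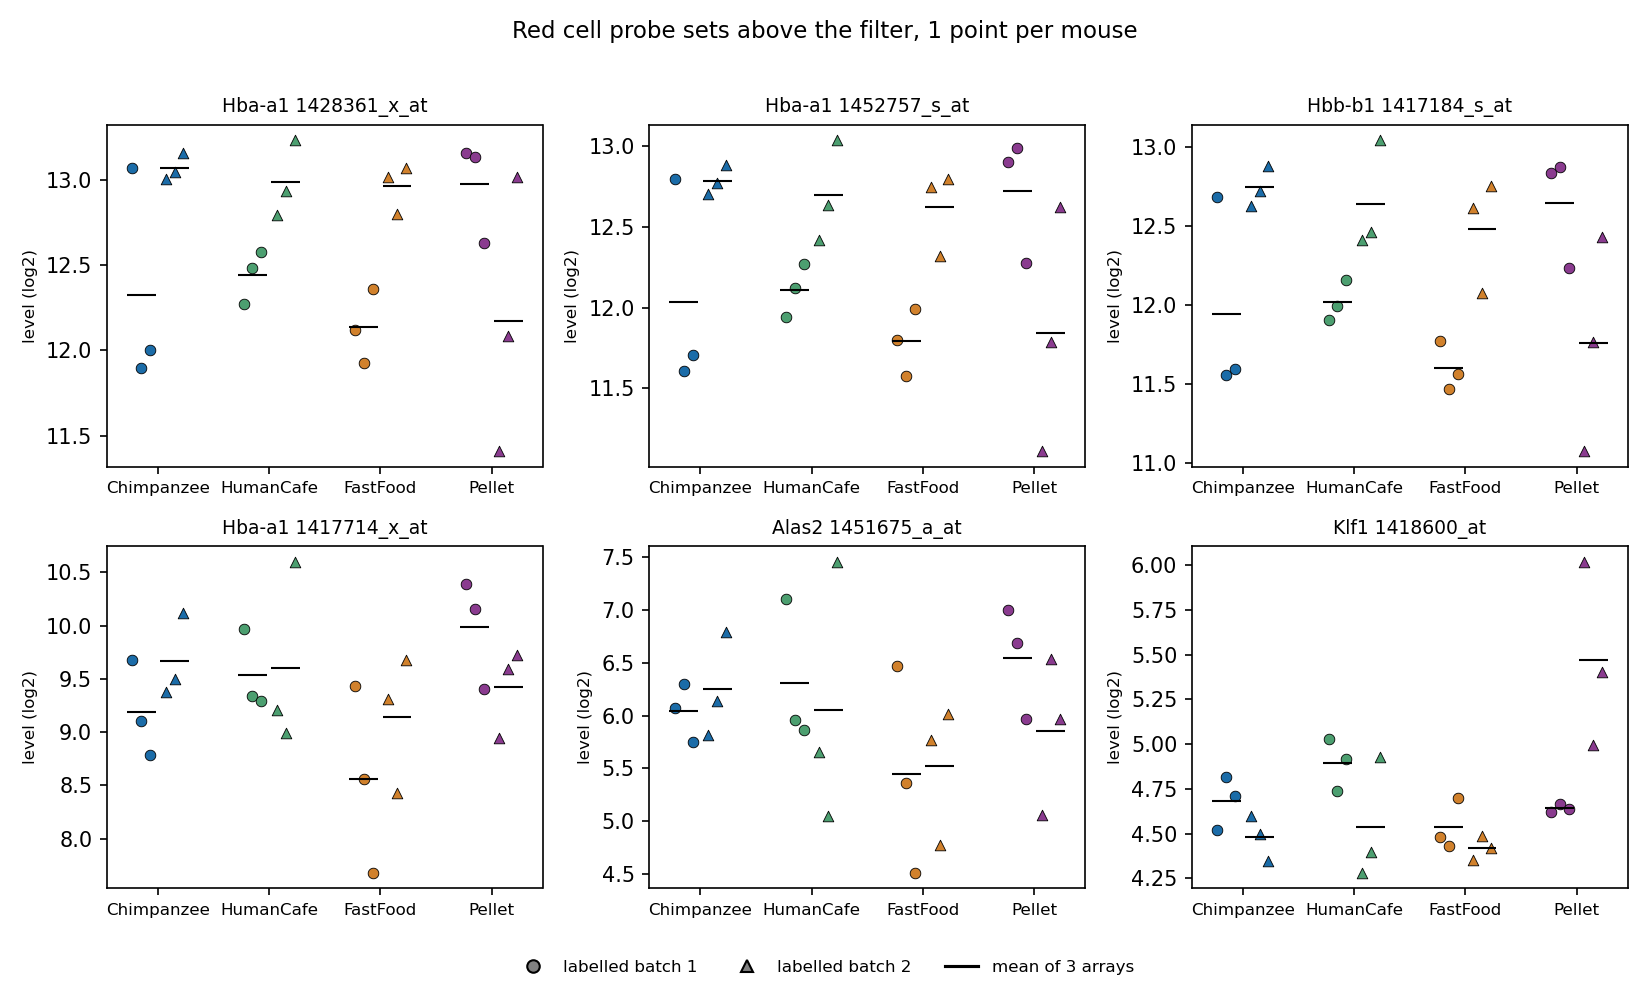
Log2 level (y axis) of the 6 red cell probe sets above the filter on each diet (x axis), 1 point per mouse, circles for batch 1, triangles for batch 2 and a bar for the mean of 3 arrays. The bright globin probe sets lie mostly higher in batch 2 on 3 diets and mostly lower on Pellet, Alas2 and the dim Hba-a1 probe set spread widely within every diet, and Klf1 is highest, 6.02, on the pellet array of batch 2 replicate 1.

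Alas2 varied between mice more than almost any other transcript. On the Chimpanzee diet its lowest, median and highest levels were 5.75, 6.10 and 6.80, on HumanCafe 5.05, 5.91 and 7.46, on FastFood 4.51, 5.57 and 6.47, and on Pellet 5.06, 6.25 and 6.996. The ranges of the 4 diets overlapped, and from the lowest mouse (FastFood batch 1 replicate 3) to the highest (HumanCafe batch 2 replicate 3) the level differed 7.71-fold. The SD within diet and batch was 0.759, and 99.8% of the passing probe sets had a smaller one.

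The dim Hba-a1 probe set spread nearly as widely. Its lowest, median and highest levels were 8.78, 9.44 and 10.12 on Chimpanzee, 8.996, 9.32 and 10.60 on HumanCafe, 7.68, 8.94 and 9.67 on FastFood and 8.94, 9.66 and 10.39 on Pellet. The lowest and the highest mouse were the same as for Alas2, and the range was 7.56-fold. Its SD within diet and batch was 0.600, larger than that of 99.6% of the passing probe sets. The 3 bright globin probe sets spread less, with SDs of 0.405, 0.420 and 0.404, and Klf1 had an SD of 0.242, larger than that of 56.0% of the passing probe sets. The HumanCafe mouse of batch 2 replicate 3 had the highest level of all 24 also for the 3 bright globin probe sets, 13.23, 13.04 and 13.04.

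The first question of the design is whether diet altered these transcripts in the brain. In the test over the 4 diets, 0 of the 6 red cell probe sets passed, beside 10 of all 22519 (0.0444%), and limma's unadjusted p was under 0.05 for 1197 of all probe sets. The adjusted p was 0.725 for Alas2, Klf1 and the dim Hba-a1 probe set and 0.869 to 0.953 for the bright globin probe sets. With weights for the arrays estimated gene by gene, which let arrays that fit poorly count less, the 4 globin probe sets passed this test at adjusted p between 0.0164 and 0.0397, while 2600 of all probe sets passed.

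Mice on FastFood had the lowest mean of all 6 red cell probe sets above the filter, but no difference passed the test. For the brightest Hba-a1 probe set the mean was 12.55 on FastFood and nearly the same, 12.57, on Pellet. Mean Alas2 was 5.48 ± 0.75 (SD, n = 6) on FastFood against 6.14 ± 0.38 on Chimpanzee, 6.18 ± 0.91 on HumanCafe and 6.20 ± 0.69 on Pellet. The dim Hba-a1 probe set averaged 8.85 ± 0.76 on FastFood, 9.43 ± 0.46 on Chimpanzee, 9.57 ± 0.60 on HumanCafe and 9.70 ± 0.52 on Pellet. For Hbb-b1 the means were 12.04 ± 0.54 on FastFood, 12.34 ± 0.60 on Chimpanzee, 12.33 ± 0.41 on HumanCafe and 12.20 ± 0.69 on Pellet. In Pellet against FastFood, Alas2 differed by 0.72 (SE 0.39, limma adjusted p = 0.250), the dim Hba-a1 probe set by 0.85 (SE 0.32, adjusted p = 0.226) and Klf1 by 0.58 (SE 0.19, adjusted p = 0.226). Beside these 0 of 6, 9 of all probe sets passed (0.04%), all lower on Pellet. For Hbb-b1 the difference was 0.16 (SE 0.30), and for the brightest Hba-a1 probe set it was 0.02 (SE 0.28). Without pellet batch 2 replicate 1 the difference of Klf1 was 0.38 (adjusted p = 0.553). With array weights the 4 globin probe sets passed in this pair, higher on Pellet by 0.70, 0.77, 0.87 and 1.18, beside 1298 of all 22519 probe sets.

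In HumanCafe against FastFood the dim Hba-a1 probe set differed by 0.72 (SE 0.32) and Alas2 by 0.70 (SE 0.39), and only 0.0444% and 0.0577% of all passing probe sets had a larger difference in size, yet their adjusted p was 1.00 and both probe sets were among the widest spread between mice. In Pellet against FastFood the share with a larger difference was 0.502% for the dim Hba-a1 probe set, 1.82% for Alas2, 6.85% for Klf1, 65.1% for Hbb-b1 and 95.2% for the brightest Hba-a1 probe set. In Chimpanzee against FastFood the 2 differences were 0.58 (SE 0.32) and 0.66 (SE 0.39). Alas2 was lower on FastFood than on HumanCafe within both labelled batches, by differences of 0.86 and 0.53, and the dim Hba-a1 probe set likewise, by 0.98 and 0.46. Within 1 batch these compare 3 mice with 3, and the ranges overlapped. In batch 2 the difference of means rested on HumanCafe replicate 3, since the medians ran the other way, 5.65 on HumanCafe and 5.77 on FastFood for Alas2 and 9.20 and 9.31 for the dim Hba-a1 probe set. Over both batches, without that array the differences were 0.41 and 0.52.

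The comparisons of Pellet with the other diets turned with the labelled batch. For Hbb-b1, Pellet minus FastFood was 1.05 (limma adjusted p = 0.0623) within batch 1 and -0.72 (adjusted p = 0.0541) within batch 2. For the brightest Hba-a1 probe set it was 0.84 (adjusted p = 0.137) and -0.79 (adjusted p = 0.0383). Within batch 2, 4 of the 6 red cell probe sets passed in Pellet against Chimpanzee, where the 3 bright globin probe sets were lower on Pellet by differences of 0.90 to 0.98 in size and Klf1 was higher by 0.99. In that fit 11758 of all probe sets passed. Within batch 1, 0 of 6 passed in any pair, while 578 of all probe sets passed in Pellet against Chimpanzee, 1755 against HumanCafe and 280 against FastFood. Klf1 was 1.05 higher on Pellet than on FastFood within batch 2 (adjusted p = 0.00445) but 0.11 within batch 1 (adjusted p = 0.723). Over both batches, 0 of 6 passed in Pellet against Chimpanzee, beside 0.00444% of all probe sets, and in Pellet against HumanCafe, beside 0%, where 1219 had an unadjusted p under 0.05. With array weights the 3 bright globin probe sets were instead higher on Pellet than on Chimpanzee, by 0.57, 0.57 and 0.58, and than on HumanCafe, by 0.47, 0.50 and 0.54, all at adjusted p under 0.05, beside 4033 and 4085 of all probe sets called.

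Between the 3 diets other than Pellet, 0 of 6 passed, beside 0% of all probe sets in each pair. In Chimpanzee against HumanCafe the 6 differences lay between -0.14 and 0.02 with SEs of 0.19 to 0.39, and 323 of all probe sets had an unadjusted p under 0.05. The counts at that unadjusted level were 407 in Chimpanzee against FastFood and 173 in HumanCafe against FastFood. Both human diets together against Chimpanzee gave differences between -0.31 (Alas2, SE 0.33) and 0.01 (Klf1, SE 0.16), again with 0 of 6 passing beside 0%, and with 420 unadjusted.

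The bright globin probe sets differed between the labelled batches, in opposite directions on Pellet and on the other diets. Other measures of the pellet arrays given below ran the same way, and whether their batch labels are exchanged could not be settled here. If they were, every batch difference on Pellet would change its sign. On Chimpanzee, HumanCafe and FastFood together, the brightest Hba-a1 probe set had lowest, median and highest levels of 11.90, 12.27 and 13.07 in batch 1 (n = 9) and of 12.80, 13.02 and 13.23 in batch 2 (n = 9). The brightest Hba-a1 probe set rose by 0.71 (SE 0.17, adjusted p = 0.00362), the second Hba-a1 probe set by 0.72 (SE 0.18, adjusted p = 0.00382) and Hbb-b1 by 0.77 (SE 0.17, adjusted p = 0.00199). With these 3 of 6 called, 36.3% of all probe sets were called, most of them higher. Alas2 differed by 0.01 (SE 0.31), the dim Hba-a1 probe set by 0.37 (SE 0.25, adjusted p = 0.244) and Klf1 by -0.22 (SE 0.11, adjusted p = 0.114), none of which passed.

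On Pellet the 3 arrays of batch 1 gave 12.63, 13.14 and 13.16 for the brightest Hba-a1 probe set and those of batch 2 gave 11.41, 12.09 and 13.02, so that the groups overlapped. The brightest Hba-a1 probe set fell by 0.81 (SE 0.30, adjusted p = 0.0264), the second Hba-a1 probe set fell by 0.88 (SE 0.31, adjusted p = 0.0201) and Hbb-b1 fell by 0.89 (SE 0.30, adjusted p = 0.0166) from batch 1 to batch 2. Klf1 rose by 0.83 (SE 0.19, adjusted p = 0.00315), from levels of 4.62, 4.64 and 4.67 to levels of 5.00, 5.40 and 6.02, without overlap. With these 4 of 6 called, 61.2% of all probe sets were called. Without pellet batch 1 replicate 1, without pellet batch 1 replicate 2 or without pellet batch 2 replicate 1, only Klf1 passed, and without the last of these the fall of the brightest Hba-a1 probe set was -0.42 (adjusted p = 0.227). The difference between the 2 batch effects, Pellet minus the other diets, was called for the same 4 probe sets, beside 69.2% of all probe sets: -1.51 (SE 0.35) for the brightest Hba-a1 probe set, -1.61 (SE 0.36) for the second Hba-a1 probe set, -1.66 (SE 0.34) for Hbb-b1 and 1.06 (SE 0.22) for Klf1. For Alas2 it was -0.70 (SE 0.63, adjusted p = 0.320).

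**Figure D2:**
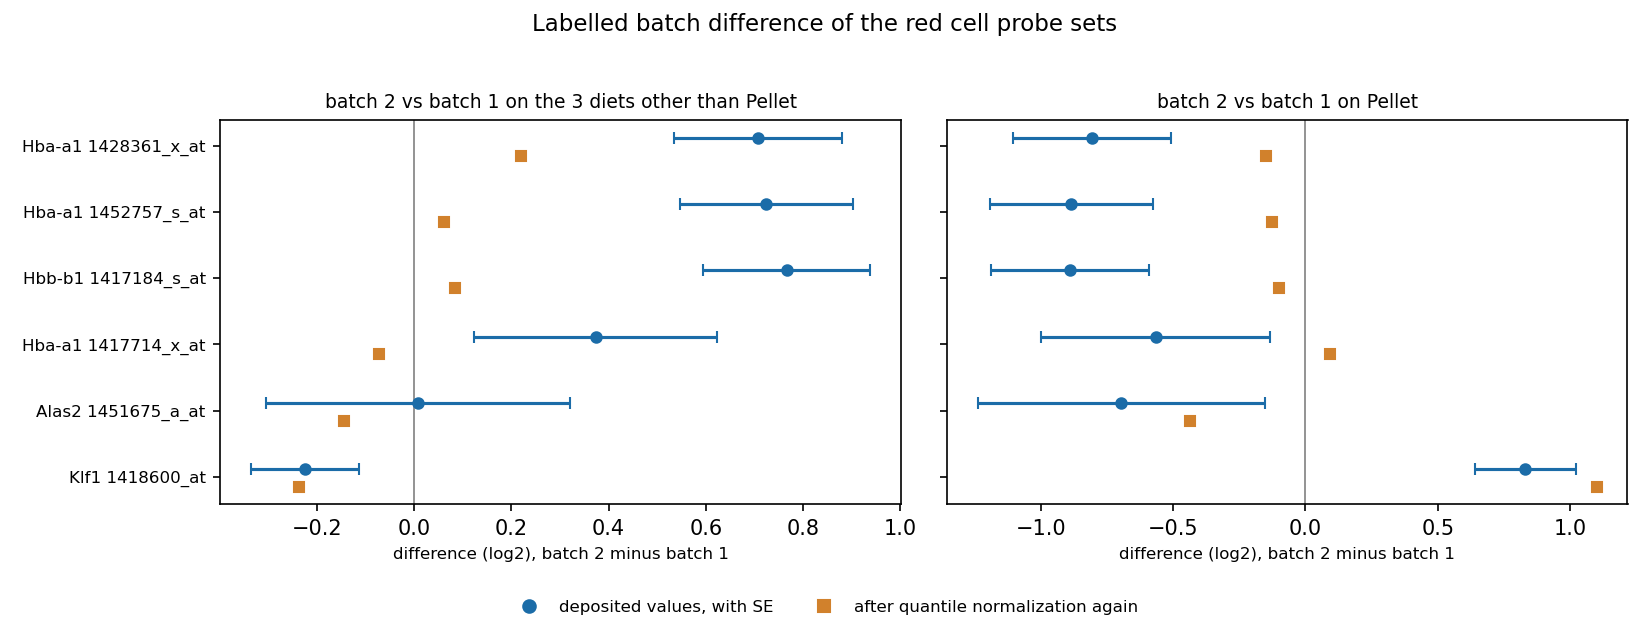
Difference between labelled batches (x axis, log2, batch 2 minus batch 1) of the 6 red cell probe sets (y axis, from the top the brightest and second Hba-a1, Hbb-b1, dim Hba-a1, Alas2 and Klf1), on the 3 diets other than Pellet at left and on Pellet at right. Circles with SE bars are from the deposited values and squares, drawn without error, from the values after a new quantile normalization. The bright globin differences of 0.71 to 0.77 at left shrink to 0.22 or less. This is largely built in, since each rank then has the same value on every array and these probe sets rank near the top.

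Other measures of the array moved with these batch differences. The top level had a mean of 11.52 ± 0.43 in batch 1 and 12.16 ± 0.08 in batch 2 on the 3 diets other than Pellet, and of 11.99 ± 0.26 and 11.20 ± 0.57 on Pellet. The mean of the 3 control probe sets for 18S ribosomal RNA was 6.10 ± 0.23 and 5.02 ± 0.10 on those diets and 5.22 ± 0.28 and 6.22 ± 0.27 on Pellet. Among markers of brain tissue, all 9 had a higher mean in batch 2 on those diets, 7 of them called, and all 9 a lower one on Pellet, 6 of them called, with Snap25 (a synaptic protein) at 0.85 and -0.86. Their mean level lay between 9.74 and 10.58 in batch 1 and between 10.47 and 10.76 in batch 2 on those diets, and between 10.29 and 10.64 and between 9.22 and 10.25 on Pellet. Their part in the globin differences was not tested. After quantile normalization of the 24 arrays again, the median difference of all probe sets changed from 0.15 to -0.01 on those diets and from -0.41 to -0.10 on Pellet, and the share of higher among called probe sets from 85.7% to 48.9% and from 17.2% to 43.3%. The bright globin probe sets then differed by 0.22, 0.06 and 0.08 on those diets and by -0.15, -0.12 and -0.10 on Pellet, none passing, and Klf1 on Pellet still passed at 1.10 (adjusted p = 0.00747). Such a normalization gives each rank the same value on every array. For probe sets with median ranks of 3, 8 and 11 the smaller differences were thus largely built in, and they do not test the batch difference.

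The bright globin probe sets were also set against the top level of the array. The brightest Hba-a1 probe set never ranked below 28, so it lay above the top level on every array, and its relation to that level is in part built in and is given as a description without a test. Over 24 arrays r was 0.91 (rho = 0.79) for the brightest Hba-a1 probe set and 0.82 (rho = 0.74) for Hbb-b1. Within batches, r was 0.84 and 0.95 for the former and 0.70 and 0.89 for Hbb-b1, and without the 2 arrays farthest from the median it was 0.86 and 0.76. On deviations from the mean of each diet and batch it was lower, 0.57 and 0.46, and 0.44 and 0.31 without pellet batch 2 replicate 1. Alas2 gave r = -0.03 (rho = -0.07, permutation p = 0.883 for r) and the dim Hba-a1 probe set r = 0.16 (rho = 0.21, permutation p = 0.442 for r). For Klf1 r was -0.60 (rho = -0.56), and -0.40 without pellet batch 2 replicate 1.

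**Figure D3:**
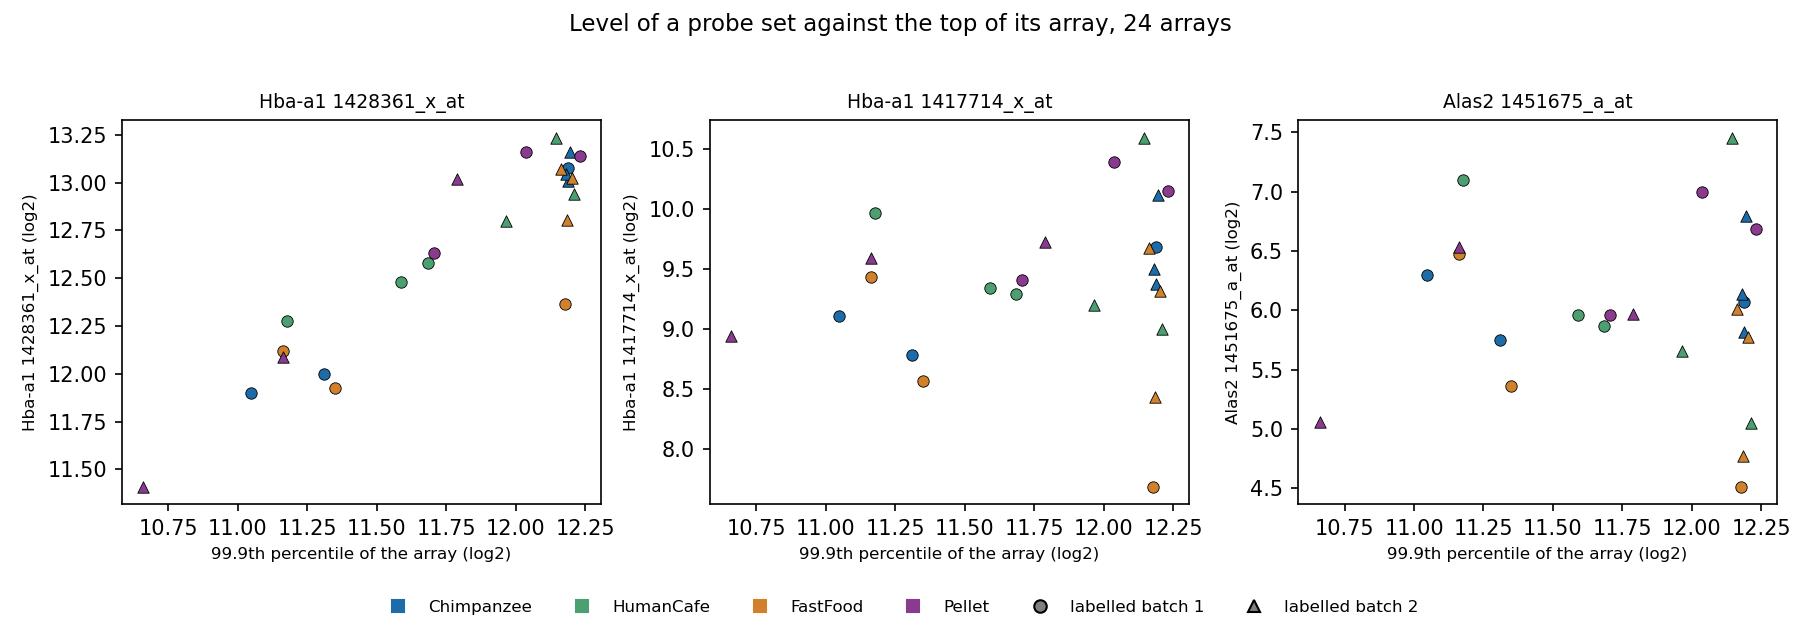
Log2 level (y axis) of the brightest Hba-a1 probe set (left), the dim one (middle) and Alas2 (right) against the top level of the same array, the level exceeded by 0.1% of its probe sets (x axis, log2), 24 arrays, coloured by diet, with circles for batch 1 and triangles for batch 2. The bright Hba-a1 probe set climbs with that level, r = 0.91, while the dim Hba-a1 probe set and Alas2 do not, r = 0.16 and -0.03.

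Of 10 pairs of red cell genes, 7 correlated at an adjusted p under 0.05 by r and 2 by rho. These permutation p-values take in differences between diets and batches, and the count was not compared with pairs of other probe sets. Fewer pairs passed by r on deviations from the mean of each diet and batch. Of the pairs called by r, the negative ones were Klf1 and Slc4a1 with the globin genes. Without pellet batch 2 replicate 1 these lay between -0.19 and 0.03. Among these genes, the signals of the 2 haemoglobin chains varied together and Alas2 went with the dim alpha globin probe set. The pairs took the brightest probe set of each gene. Hba-a1 and Hbb-b1 gave r = 0.97 and rho = 0.98 (permutation p = 1e-05, adjusted p = 1e-04), 0.97 and 0.96 within batches, 0.96 without the 2 arrays farthest from the median and 0.94 on deviations from the mean of each diet and batch. Alas2 gave r = 0.47 (rho = 0.48) with Hbb-b1, with an adjusted p of 0.0396, and within batches r was 0.54 and 0.55 without passing over 12 arrays each (adjusted p = 0.239 and 0.0977), and r = 0.30 (rho = 0.41, adjusted p = 0.198) with Hba-a1. After the new quantile normalization, where a level follows from its rank on the array, these became 0.87 and 0.67, and Hba-a1 with Hbb-b1 became 0.82. The dim Hba-a1 probe set, chosen after its values were seen, correlated with Alas2 at r = 0.91 and rho = 0.90 (permutation p = 1e-05, adjusted p = 5e-05 over 5 relations). That relation was 0.93 and 0.96 within batches, 0.86 without the 2 arrays farthest from the median, 0.94 on deviations and 0.90 after the new quantile normalization. With the brightest Hba-a1 probe set, annotated to the same 2 genes, the dim probe set gave only r = 0.52 (rho = 0.68, adjusted p = 0.0112).

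**Figure D4:**
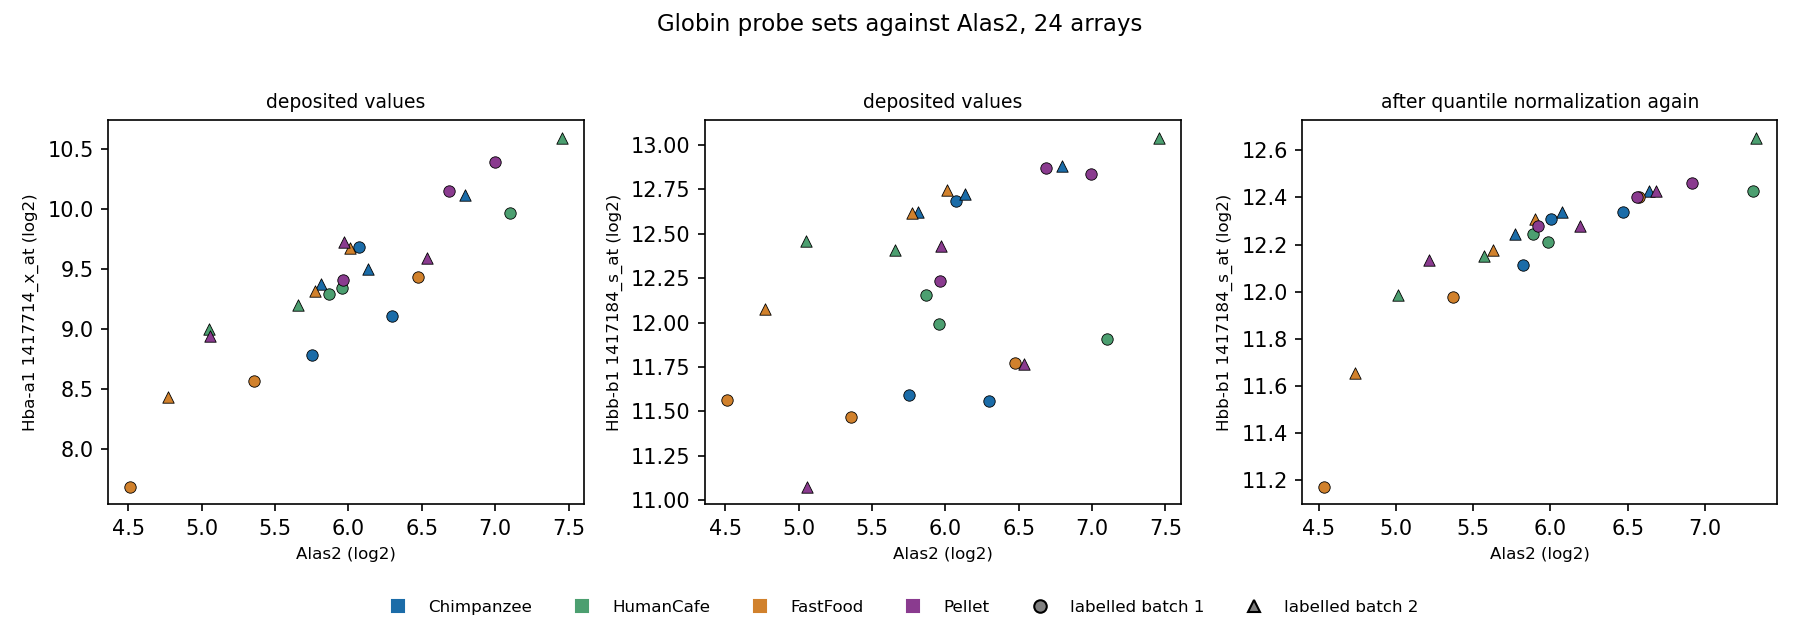
Globin probe sets (y axis, log2) against Alas2 (x axis, log2) on 24 arrays, coloured by diet, circles for batch 1 and triangles for batch 2. At left the dim Hba-a1 probe set follows Alas2, r = 0.91; in the middle Hbb-b1 does so loosely, r = 0.47; at right, after quantile normalization again, Hbb-b1 gives r = 0.87.

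The gap between alpha and beta globin signals also varied. The difference of the brightest Hba-a1 probe set minus Hbb-b1 lay between 0.19, on the HumanCafe array of batch 2 replicate 3, and 0.80, on the FastFood array of batch 1 replicate 3. On pellet batch 2 replicate 1 it was 0.33 and on pellet batch 2 replicate 3 it was 0.59.

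Klf1 and Slc4a1 gave r = 0.85 (rho = 0.60, permutation adjusted p = 0.00020 for r and 0.0117 for rho). Without pellet batch 2 replicate 1 r was 0.65, without replicates 1 and 3 of that group it was 0.44 (adjusted p = 0.199), and within batches it was 0.65 and 0.88. Neither gene followed Alas2, with r = 0.01 for Klf1 and -0.20 for Slc4a1. Their 4 negative correlations with the 2 globin genes, between -0.42 and -0.48, had an adjusted p of 0.0396 each and were between -0.19 and 0.03 without pellet batch 2 replicate 1. On that array Klf1 reached 6.02 and the brightest Slc4a1 probe set 5.09, whereas Slc4a1 lay between 3.15 and 3.91 on the others. The same array had the highest value, 4.16, of the probe set annotated to Hba-a1 alone, and the lowest values of the 3 bright globin probe sets, 11.41, 11.11 and 11.07. The other 2 probe sets of Slc4a1 stayed within 3.01 to 3.46 and 2.76 to 3.24 over all 24 arrays.

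**Figure D5:**
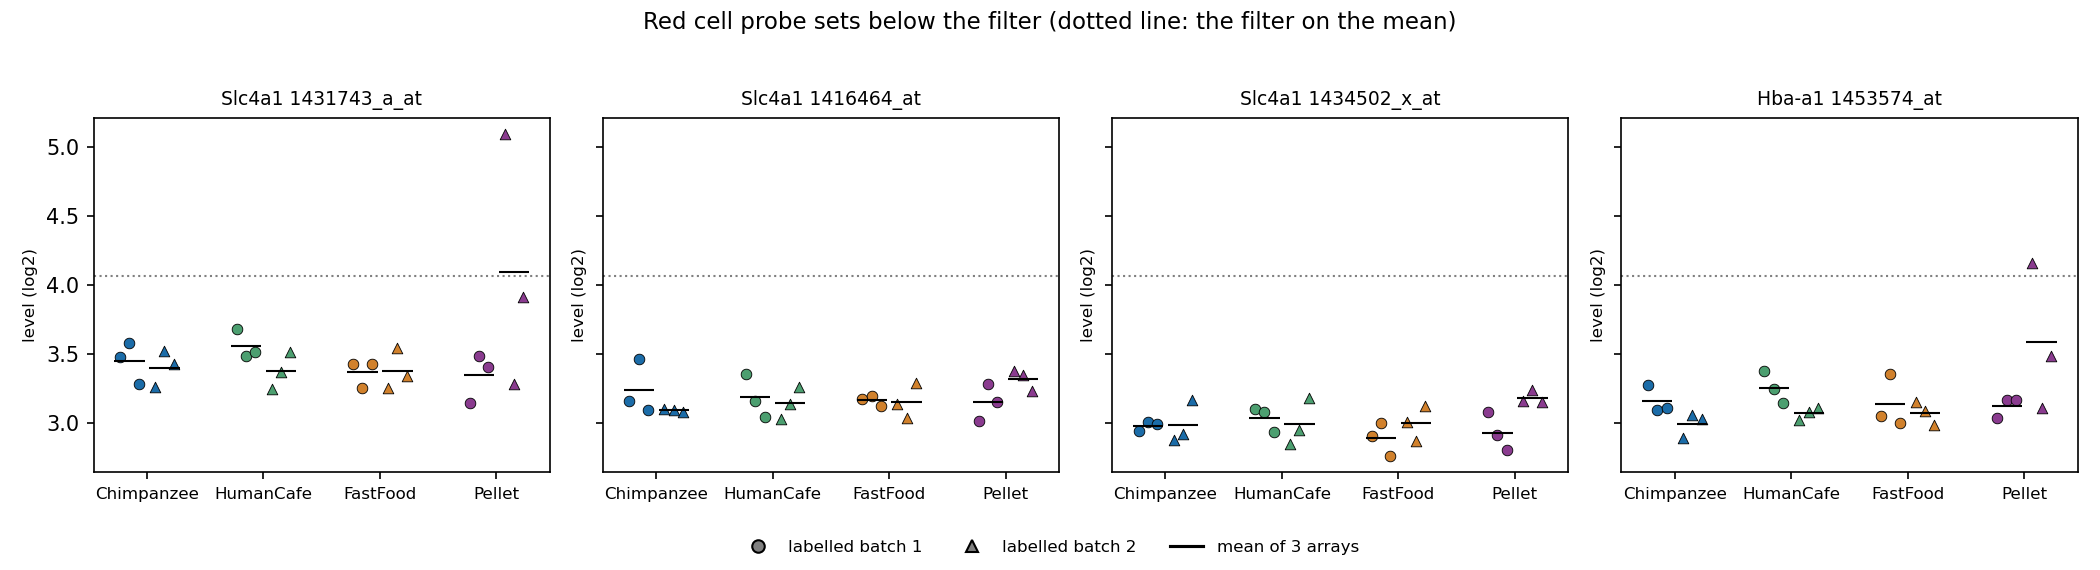
Log2 level (y axis, shared) of the 4 red cell probe sets below the filter on each diet (x axis), 1 point per mouse, circles for batch 1, triangles for batch 2, a bar for the mean of 3 arrays and a dotted line at the filter, 4.07. Values lie between 2.76 and 3.91 except on the pellet array of batch 2 replicate 1, which reads 5.09 for the brightest Slc4a1 probe set (far left) and 4.16 for the Hba-a1 probe set (far right).

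The genes most like each member were found by the correlation of deviations from the mean of each diet and batch over 24 arrays, which share the array's normalization. For Alas2 they were Tent5c (a poly(A) polymerase) at r = 0.89, Rsad2 (an interferon-induced protein) at 0.83, Isg20 (an RNA exonuclease) at 0.79, Prrg1 at 0.76 and Rbm45 at 0.71. For the dim Hba-a1 probe set they were Tent5c at 0.80, Khsrp at 0.78, Rsad2 at 0.76, Srsf6 at 0.71 and Isg20 at 0.71. For the brightest Hba-a1 probe set they were the mitochondrial gene ND5 at 0.93, Tmem151b at 0.93, Ubqln1 at 0.92, Hsp90aa1 at 0.92 and Clip3 at 0.92, and for Hbb-b1 Tmem151b at 0.87, Mark1 at 0.86, Ly86 at 0.85, Nedd4 at 0.83 and ND5 at 0.83. For Klf1 they were 2310033P09Rik, Ptprcap, Hspa5, Misp and Mettl17, at 0.92 to 0.94, and for Slc4a1 Tff1, Slc19a1, Tex37, Sox14 and Fndc1, at 0.95 to 0.96. Both genes were highest on pellet batch 2 replicate 1. Without that array r was 0.88 to 0.92 for Klf1 and 0.89 to 0.91 for Slc4a1, whose probe set lay below the filter.

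The wider red cell pathway was followed through lists of named genes, beside which 101 of the 22513 other passing probe sets (0.449%) correlated with Alas2 at r over 0.5 on deviations. Of the haem synthesis genes, whose median was 0.07 and whose lowest value was -0.47, for Alad, 2 of 11 did so. These were Slc25a37 (mitoferrin, which carries iron into mitochondria) at 0.68 and Fech (ferrochelatase, which inserts the iron) at 0.60. Of the late erythroid genes it was 1 of 10, Isg20 at 0.79, with a median of 0.10, of the red cell membrane genes 0 of 6 and of the erythroid regulators 0 of 8. Among cells of the vessel wall, 2 of 10 endothelial genes did so, Kdr and Esam, each at 0.53, and 0 of 7 mural cell genes. The endothelial median, 0.19, was above those of the haem synthesis and late erythroid lists. An r over 0.5 was found for 0 of 5 platelet genes, 0 of 1 neutrophil gene and 0 of 2 lymphocyte genes. It was found for 0 of 5 choroid plexus, 0 of 7 meninges and 0 of 9 brain tissue genes, with medians of -0.23, -0.01 and -0.13. Most listed markers of neutrophils and lymphocytes lay below the filter. Of 9 neutrophil genes on the array 1 passed, Camp at 4.08, with S100a8 at 3.86 and S100a9 at 3.55. Of 9 lymphocyte genes 2 passed, Cd8a at 5.32 and Cd3e at 5.13, whereas of 8 platelet genes 5 passed. Gp1bb at 5.97 and Itga2b at 5.20 had the highest means of the platelet genes, and Alad at 7.77 and Urod at 7.64 of the haem synthesis genes. Car2 at 10.25 and Prdx2 at 9.96, the highest of the late erythroid list, are also used by brain cells. Only 6 of 13 red cell membrane genes and 8 of 13 erythroid regulators on the array passed the filter. The passing ones included Dmtn at 9.29 and Bcl11a at 8.46, far above Alas2 at 6.002. Rhag at 2.57, Epb42 at 3.46, Gata1 at 3.21 and Nfe2 at 3.29 lay below it, so the counts of 0 do not cover them.

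Diet called no gene of these lists. In Pellet against FastFood 0 of 11 haem synthesis genes, 0 of 6 red cell membrane genes, 0 of 8 erythroid regulators and 0 of 10 late erythroid genes passed, with median differences of -0.05, -0.14, -0.05 and -0.12 beside -0.17 over all probe sets. Between batches on the 3 diets other than Pellet, where 36.3% of all probe sets were called, 3 of 10 late erythroid genes rose, Car2 by 0.80, Mkrn1 by 0.42 and Bpgm by 0.33, and 2 of 11 haem synthesis genes, Slc25a37 by 0.41 and Fech by 0.36. On Pellet, where 61.2% of all probe sets were called, most of them lower, 8 of 10 late erythroid genes fell from batch 1 to batch 2, among them Cat by 0.91 and Car2 by 0.89, and of the haem synthesis genes 7 of 11 fell and 1 rose. The median difference of the late erythroid genes was 0.24 on the other diets and -0.69 on Pellet, beside 0.15 and -0.41 over all probe sets.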

How the data were processed

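The deposited series table holds log2 levels. The paper states that levels were summarised per probe set by RMA in Bioconductor (affy) with quantile normalization. The version is not given in the sources used here. The deposited arrays did not share one spread: their SD ran from 1.58 to 2.06 and their top level from 10.66 to 12.23. They thus do not look quantile normalized together, and the reason was not tested. Differences were tested on the values as deposited, except where a new normalization is named. Groups came from the sample labels. The 64 control probe sets were set aside, and 22519 of 45037 probe sets had a mean of at least 4.07. Of the 45037, 34945 have 1 gene in the platform annotation, 932 several and 9160 none listed. Arrays give no read depth, so their number limits the precision.

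The members and lists were chosen with earlier results of these data known. Differences were fitted with limma 3.58.1 in R 4.3.3 over all 24 arrays, with diet and labelled batch, or with 8 means of diet and batch for batch differences, and adjusted by Benjamini-Hochberg over all probe sets. The fit was tried on simulated data with independent normal noise and the same batch difference on every diet. That trial does not cover an outlying array or an opposite batch difference on Pellet. Correlations used 100000 permutations, two-sided. Named genes are all member probe sets, list genes past the threshold (at most 3 per direction), the 2 list genes of highest mean, and the 5 genes most like each member; from the batch comparisons only some are printed, and Kdr, Esam, S100a8, S100a9 and the haem genes set against Alas2 were named after their values were seen. Alternatives covered filter, variance model, normalization, weights, batch, pairing and left-out arrays.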

Additional observations from a re-analysis of the deposited data

Results flagged for a closer look

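The batch difference differed between Pellet and the other diets, by the test of that difference itself, for 4 of 6 red cell probe sets, a share close to the 69.2% of all probe sets called for it. The difference between the 2 batch differences was -1.51 for the brightest Hba-a1 probe set, -1.61 for the second Hba-a1 probe set, -1.66 for Hbb-b1 and 1.06 for Klf1. Of 40 groups of 6 arrays, 1 held an array set apart from the others by Dixon's gap test, which chance does in about 1 of 20 groups: the second Slc4a1 probe set by mean level read 3.46 on the Chimpanzee array of batch 1 replicate 2, where the next highest was 3.16.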

How the results depend on the processing

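Of 2062 member differences recomputed under other settings, 2002 kept their call, 121 of them with a change of sign that no call rests on, 31 lost and 21 gained the call, and 8 were called in the opposite direction. Of 6 red cell probe sets, array weights called 4 over the 4 diets, 3 in Pellet against Chimpanzee, 3 against HumanCafe and 4 against FastFood, and 1 between batches on Pellet. Under them the bright globin probe sets turned to 0.57, 0.57 and 0.58 against Chimpanzee and to 0.47, 0.50 and 0.54 against HumanCafe. Over all probe sets, weights called 2600 over the 4 diets (10 without), 4033, 4085 and 1298 in the 3 Pellet pairs, and 15356 between batches on the other diets. Their count over all probe sets between batches on Pellet is not given here. Labelled batch 2 alone called 1 over the 4 diets and 4, 4 and 3 in the Pellet pairs, with the Hba-a1 probe sets at -0.79 and -0.78 against FastFood. The count over all probe sets in batch 2 alone is given above only for Pellet against Chimpanzee. The other member counts of that setting therefore have no share beside them. With batch 1 and batch 2 swapped on Pellet, 2 were called against FastFood, beside 3524 of all probe sets. Quantile normalization again, which leaves top-ranked probe sets little room to differ, called 0 between batches on the other diets, 1 on Pellet and 1 for the difference. Of all 22519 probe sets it called 2567 higher and 2679 lower on the other diets. On Pellet it called 3885 higher and 5095 lower, and for the difference 5355 higher and 6545 lower. The same normalization with 1 pellet array left out, chosen after seeing the data, called 1, 1 and 1 red cell probe sets. Leaving out each array in turn gave 1 to 4 called between batches on Pellet. Counts over all probe sets are not given here for the left-out arrays, so those member counts have no share beside them. The cause of these changes was not tested.

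Arrays of the same replicate number did not deviate together, with a median correlation of -0.02 over 36 pairs, beside -0.01 over 72 pairs of other numbers. The study spread littermates evenly over the diet groups. These correlations, which share the scaling of whole arrays, cannot tell whether the numbers mark littermates. With the replicate number as a block, 0 of 6 were called in every diet comparison, and 1 of all probe sets over the 4 diets.

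Of 10 gene pairs, 7 had an adjusted p under 0.05 by r and 2 by rho, without a comparison with pairs of other probe sets. By r the count was 1 within batch 1, 2 within batch 2, 1 without the 2 arrays farthest from the median, 2 without pellet batch 2 replicate 1, 3 on deviations and 4 after quantile normalization again. The sign turned for Hba-a1 with Slc4a1, at 0.119 without those 2 arrays and 0.0339 without pellet batch 2 replicate 1, and for Hbb-b1 with Klf1, at 0.0807 after quantile normalization again. The number of arrays limits what can be detected, and probe sets below the filter give little order.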
